A study of Mus musculus with 11 samples.

Results

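The genes described here encode the machinery of oxidative phosphorylation, in neural stem cells (NSCs) taken from the hippocampus of mouse embryos. They were chosen by symbol, as the protein-coding mouse genes whose names begin with mt-Nd, mt-Co, mt-Atp, Nduf, Sdha, Sdhb, Sdhc, Sdhd, Uqcr, Cox4, Cox5, Cox6, Cox7, Cox8 or Atp5, together with mt-Cytb, the annotation's symbol for mitochondrial cytochrome b. This gave 110 of the 53801 genes in each table, of which 13 are encoded by mitochondrial DNA and 97 by the nucleus. Of the nuclear members, 84 encode subunits (36 of complex I, 4 of complex II, 8 of complex III, 20 of complex IV and 16 of complex V) and 13 encode assembly or coupling factors that the same prefixes take in.

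The respiratory chain passes electrons from NADH and succinate to oxygen through complexes I to IV and pumps protons across the inner mitochondrial membrane, and complex V, the ATP synthase, uses that gradient to make ATP. Complexes I, III, IV and V are built from both genomes, whereas complex II is wholly nuclear. Mitochondrial DNA is transcribed by its own polymerase into long RNAs that are cut into separate messages, so its genes share a promoter system that the nuclear genes do not. Neural stem cells are known for strong glycolysis, and their neuronal and glial progeny for heavier use of oxidative phosphorylation.

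The study asked how 4-hydroxybenzophenone (4HBP), a benzophenone metabolite, acts on NSCs, and sequenced RNA of 11 cultures after 7 days. All cells were primary NSCs, kept with either 1 µM 4HBP or the EtOH vehicle, and the sources used here name no genetic change and, for these cultures, no other treatment. Proliferation medium carried the growth factors EGF and bFGF at 20 ng/ml each with 1% B27 (3 vehicle and 3 4HBP cultures), and the differentiation medium listed 2% B27 without either growth factor (2 vehicle and 3 4HBP cultures). The sample labels call the compound 4-hydroxybenzoic acid and the paper 4-hydroxybenzophenone, and the paper's name is used. Nothing says whether replicates came from separate isolations, so the p-values measure only the spread between these cultures, which may be technical. These are bulk libraries, in which fewer cells of a type and less RNA per cell cannot be told apart.

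Library totals lay between 20822921 and 23438463 expected counts, at which 3 counts equal 0.128 to 0.144 counts per 1000000 counts of the library (CPM). Mean fragment length was 194 to 205 bases in the proliferation libraries and 164 to 180 in the differentiation libraries. Replicate 3 of the proliferation 4HBP group stood apart from its group, with a mean chi-square per gene of 25.7 and 23.1 against the other two libraries, which differed from each other by 5.63. The 6 stem cell and cell cycle markers (Nes, Sox2, Pax6, Hes5, Mki67, Top2a) summed to 1159 to 1686 CPM in proliferation and 436 to 470 CPM in differentiation medium, the 6 oligodendrocyte lineage markers to 2142 to 3865 and 7634 to 8065 CPM, the 5 astrocyte markers to 3049 to 5104 and 5517 to 5760 CPM, and the 6 neuronal markers to 914 to 1022 and 929 to 962 CPM. In vehicle, 6 of 6 stem cell markers fell with differentiation medium, whereas 5 of 6 oligodendrocyte, 3 of 5 astrocyte and 4 of 6 neuronal markers rose (2 astrocyte and 1 neuronal marker fell). Microglial markers summed to at most 0.518 CPM, endothelial to 2.51, mesenchymal to 1.19 and erythroid to 0.0476. All medium differences below moved together with these markers and with fragment length, and the part of either was not tested.

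Before any level is read, 7 of the 13 mitochondrial genes have to be set beside a copy of mitochondrial DNA in the nuclear genome. It lies at chr1:24611535-24616197 (GRCm38, minus strand) and is annotated as a row of unprocessed pseudogenes. Reads that fall in the shared stretch can be given to either locus. mt-Co2 (chrM:7013-7696) and its copy Gm28661 (chr1:24614885-24615565) were identical over all 681 shared bases, as were mt-Atp6 (chrM:7927-8607) and Gm10925 over 678, mt-Co3 (chrM:8607-9390) and Gm28437 over 783, mt-Nd4l (chrM:9877-10173) and Gm10222 over 294, and mt-Nd4 (chrM:10167-11544) and Gm28439 over 876. mt-Nd3 (chrM:9459-9806) differed from Gm28438 at a single base, T3C, counted from 1 at the gene's first base, and mt-Co1 differed from Gm29216 at 6 of 492 bases. The ends shown are the last 30 bases of each gene, with the bases past the end of the annotated copy in capitals. For mt-Nd3 the first 30 bases are shown, with the changed base in capitals. The capitals at the ends mark where each annotated copy stops, not a difference in sequence. Only transcripts were compared, so whether chromosome 1 goes on with the same bases was not examined. For mt-Nd4l it does, since its capitals lie within the stretch of mt-Nd4 that Gm28439 matches.
mt-Co2 end: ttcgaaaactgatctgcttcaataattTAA
Gm28661 end: ttcgaaaactgatctgcttcaataatt
mt-Atp6 end: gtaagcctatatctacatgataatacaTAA
Gm10925 end: gtaagcctatatctacatgataataca
mt-Co3 end: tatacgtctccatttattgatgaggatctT
Gm28437 end: tatacgtctccatttattgatgaggatct
mt-Nd4l end: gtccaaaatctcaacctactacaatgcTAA
Gm10222 end: gtccaaaatctcaacctactacaatgc
mt-Nd3 start: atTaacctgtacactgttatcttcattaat
Gm28438 start: atCaacctgtacactgttatcttcattaat

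The assignment between gene and copy was lopsided. For mt-Co2 the gene held 0.847% to 1.83% of the summed counts over the 11 libraries, for mt-Atp6 0.553% to 2.72% and for mt-Co3 0.00158% to 5.1%, so nearly all of these messages were booked on the chromosome 1 copies. The split of mt-Nd3 moved with the medium, with 0% to 4.8% of the sum on the gene in the 6 proliferation libraries and 19.5% to 24.8% in the 5 differentiation libraries. The split of mt-Nd4l moved the other way, from 56.0% to 70.1% (4HBP) and 55.5% to 67.2% (vehicle) in proliferation to 13.6% to 17.6% in differentiation medium. mt-Nd4 and mt-Co1, which extend past their copies, kept at least 93.6% and 94.0%. mt-Co3 is therefore given throughout as the sum with its copy, and each of the other 6 genes is given both as assigned and summed. Among the nuclear members the same problem touched Atp5g2, whose processed copy Gm10175 held 88.8 to 157 CPM against 3.2 to 7.91 CPM on the gene, and Ndufb4, whose copy Ndufb4c held 24.5 to 42.9 CPM against 5.85 to 7.81 CPM. Both are reported as uncertain. Cox7c also has a processed copy, Gm12338, which held 21.9 to 41.3 CPM over the libraries, so its level and fold change are uncertain too. mt-Co1 and mt-Co2 also share part of their sequence with Gm13340 and Gm13341 on chromosome 2, which held at most 0.744 and 0.578 CPM.

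**Figure D1:**
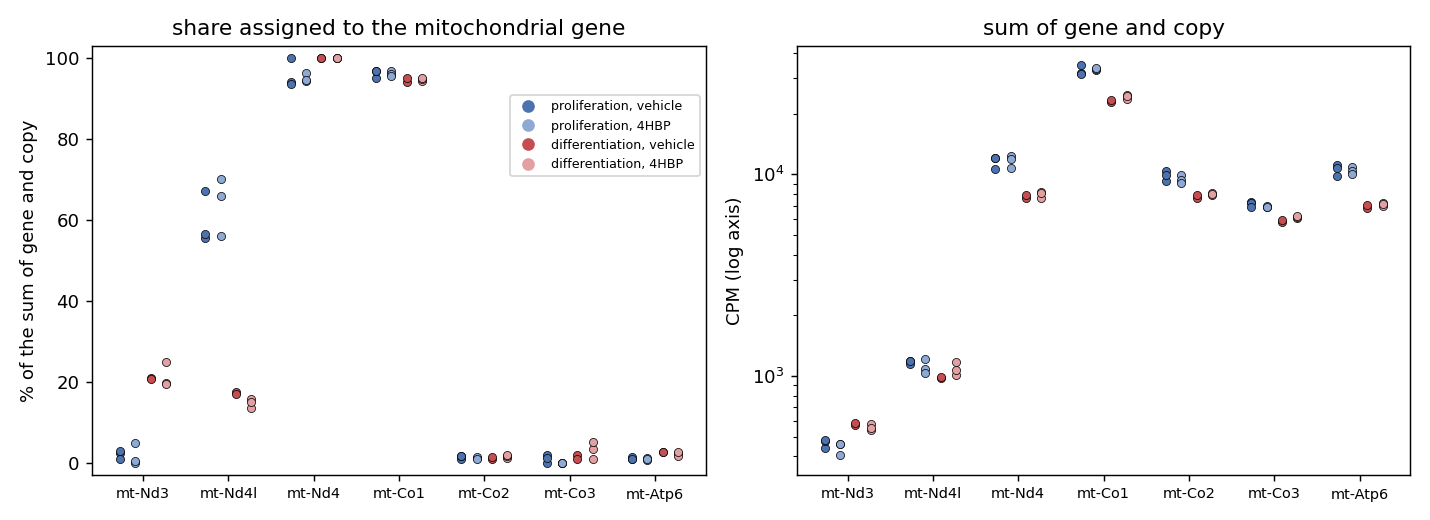
Left, percent of the summed counts of gene and chromosome 1 copy that was assigned to the mitochondrial gene, and right, their sum in CPM on a log axis, for 7 mitochondrially encoded genes, with a point for each of the 11 libraries coloured by group. mt-Co2, mt-Co3 and mt-Atp6 sit at 5.1% or lower in every library, and mt-Nd3 and mt-Nd4l change their split between the media while their sums differ far less.

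The comparison of differentiation with proliferation medium asks how the 2 genomes' messages stand in separate vehicle cultures kept in either medium. The media differ in both growth factors and in B27, and no culture was sampled before and after a change. Mitochondrially encoded messages took a smaller share of the libraries in differentiation medium and nuclear messages a larger one. The 13 mitochondrial genes summed to 9.25%, 10.04% and 9.84% of the counts in the 3 proliferation vehicle libraries and to 6.25% and 6.45% in the 2 differentiation vehicle libraries. Under 4HBP the shares were 10.2%, 9.71% and 9.1% in proliferation and 6.47%, 6.75% and 6.72% in differentiation medium. With the copies added, the ranges were 11.3% to 12.5% and 7.93% to 8.51%. The media did not overlap under either treatment.

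The nuclear members ran the opposite way. They summed to 8630, 7818 and 7779 CPM in the proliferation vehicle libraries and to 9554 and 9655 CPM in the differentiation vehicle libraries, and under 4HBP to 7552, 7825 and 7338 CPM against 10260, 9681 and 10121 CPM. The ratio of the mitochondrial to the nuclear sum was 12.1 ± 1.17 (SD, n = 3) in proliferation and 6.61 ± 0.103 (SD, n = 2) in differentiation vehicle cultures, a log2 difference of -0.86, and 12.8 ± 0.632 (SD, n = 3) and 6.64 ± 0.333 (SD, n = 3) under 4HBP, a log2 difference of -0.94. With the chromosome 1 copies added these differences were -0.83 and -0.91. The ratio is a description of the members and carries no p-value. CPM here are relative to the library total, whereas the fold changes below use TMM scaling.

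**Figure D2:**
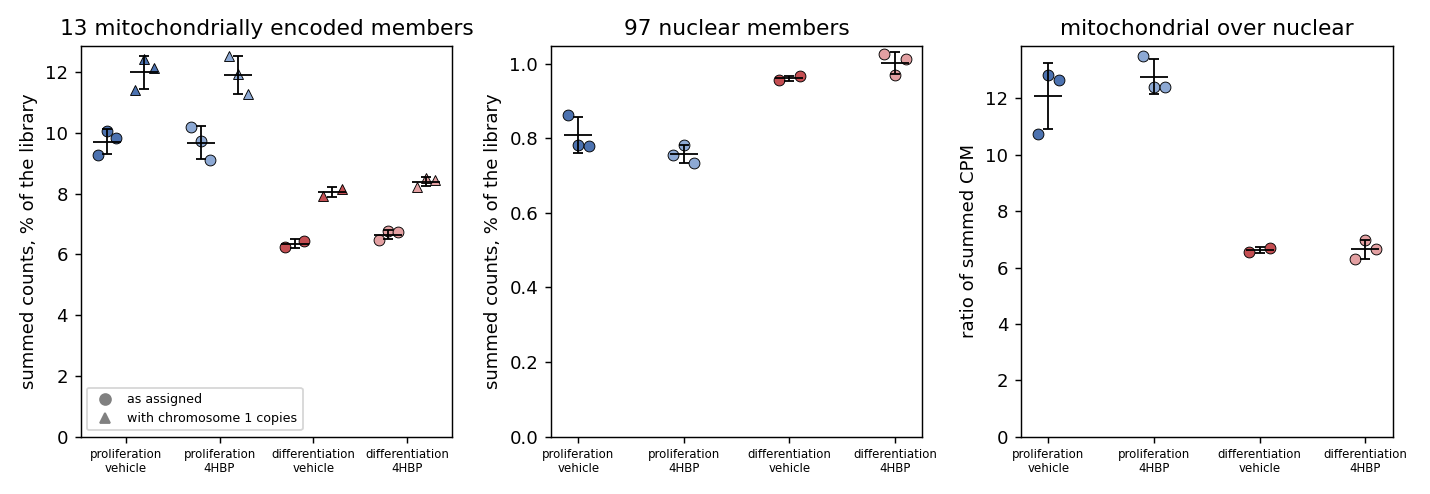
Summed counts of the 13 mitochondrially encoded members (percent of the library, as assigned and with chromosome 1 copies), of the 97 nuclear members (percent of the library) and the ratio of the sums, with a point per library, and the group mean and SD in black. The mitochondrial sums of the 5 differentiation libraries lie below all 6 proliferation libraries, and their nuclear sums lie above them.

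The shift was present in each complex that draws on both genomes. In vehicle, the log2 ratio of mitochondrial to nuclear CPM differed between the media by -0.87 for complex I, -0.70 for complex III, -1.10 for complex IV and -1.25 for complex V, and under 4HBP by -0.94, -0.79, -1.17 and -1.25. The size depended on the measure. For complex V the difference was -2.31 in vehicle and -2.52 under 4HBP from TPM, and -0.78 and -0.71 as a difference of medians, and for complex I the medians gave -1.37 and -1.36. The TPM sum of complex V includes mt-Atp8, whose TPM depends on fragment length, as given below. With the copies summed, the complex V difference was -0.92 in vehicle, and its level rose from below to above 0, since mt-Atp6 is booked almost wholly on chromosome 1. In complex IV the nuclear sum went from 1215, 1131 and 1043 CPM to 1750 and 1726 CPM in vehicle, the widest relative gap among the nuclear sums. In complex I it went from 2422, 2163 and 2125 CPM to 2454 and 2465 CPM, so most of the change of that ratio lay in the mitochondrial sum, which went from 37174, 40855 and 42008 CPM to 23572 and 24542 CPM.

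**Figure D3:**
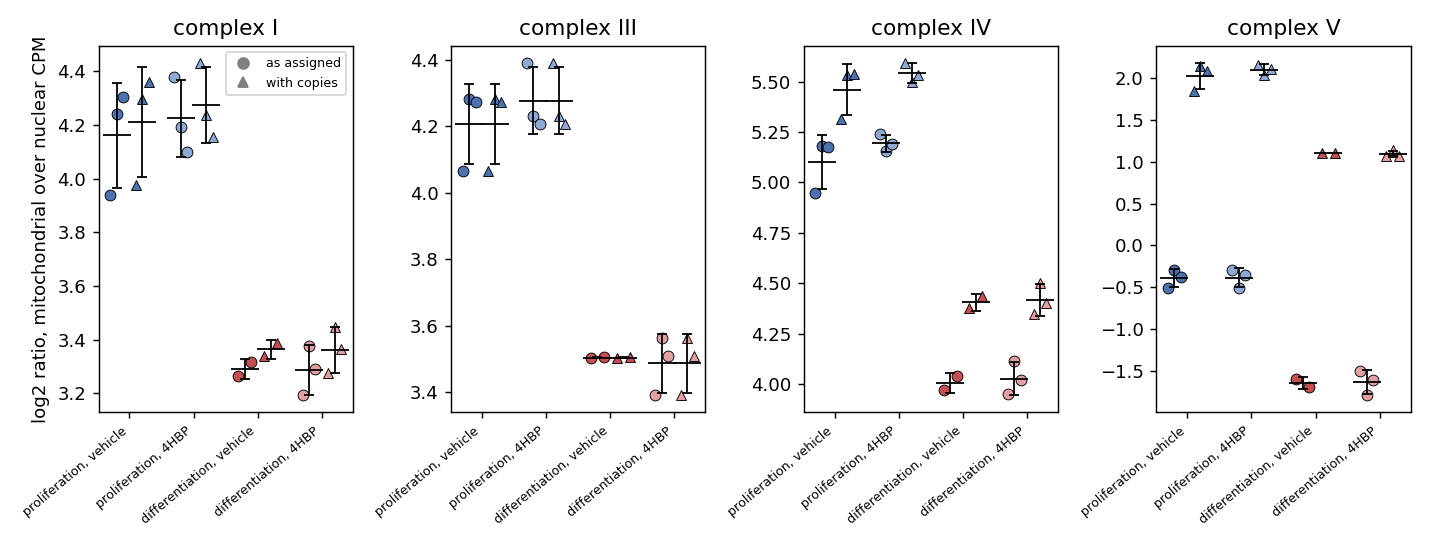
Log2 ratio of the summed CPM of mitochondrially encoded to nuclear members of complexes I, III, IV and V in each library, as assigned (circles) and with the chromosome 1 copies summed (triangles), with the group mean and SD in black. In each complex the 5 differentiation libraries lie below the 6 proliferation libraries.

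Gene by gene, 75 of the 105 members tested changed between the media in vehicle cultures (edgeR quasi-likelihood test, Benjamini-Hochberg adjusted p under 0.05 over all genes), against a background of 63% of all 15307 genes tested. Of these 49 were higher and 26 lower in differentiation medium, where the background was 31.4% and 31.5%. Under 4HBP, where no library is shared with the vehicle comparison, 84 of 106 members changed (background 67.4%), 65 higher (background 33.3%) and 19 lower (background 34.1%). The direction divided by genome. Of the 13 mitochondrial members 10 fell and 3 rose in vehicle with a median log2 fold change of -0.60, and with copies summed 11 fell and 2 rose with a median of -0.58. Of the 92 nuclear members tested 46 rose, 16 fell and 30 were not called, with a median of 0.30 against 0.02 over all genes. Under 4HBP 62 of 93 nuclear members rose and 10 fell, with a median of 0.41 against 0.00465 over all genes. The 10 include Cox6a2, which passed the low-count filter only through the proliferation 4HBP cultures and could only be called lower.

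The vehicle and the 4HBP comparison share no library. Over the 92 nuclear members tested in both, 45 rose in vehicle and under 4HBP, which is 97.8% of the 46 in vehicle and 72.6% of the 62 under 4HBP, 7 fell in both, of 16 in vehicle and 9 under 4HBP, and 0 moved in opposite directions. These shares stand beside the 63% and 67.4% of all genes called, and the overlap over all genes was not computed.

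**Figure D4:**
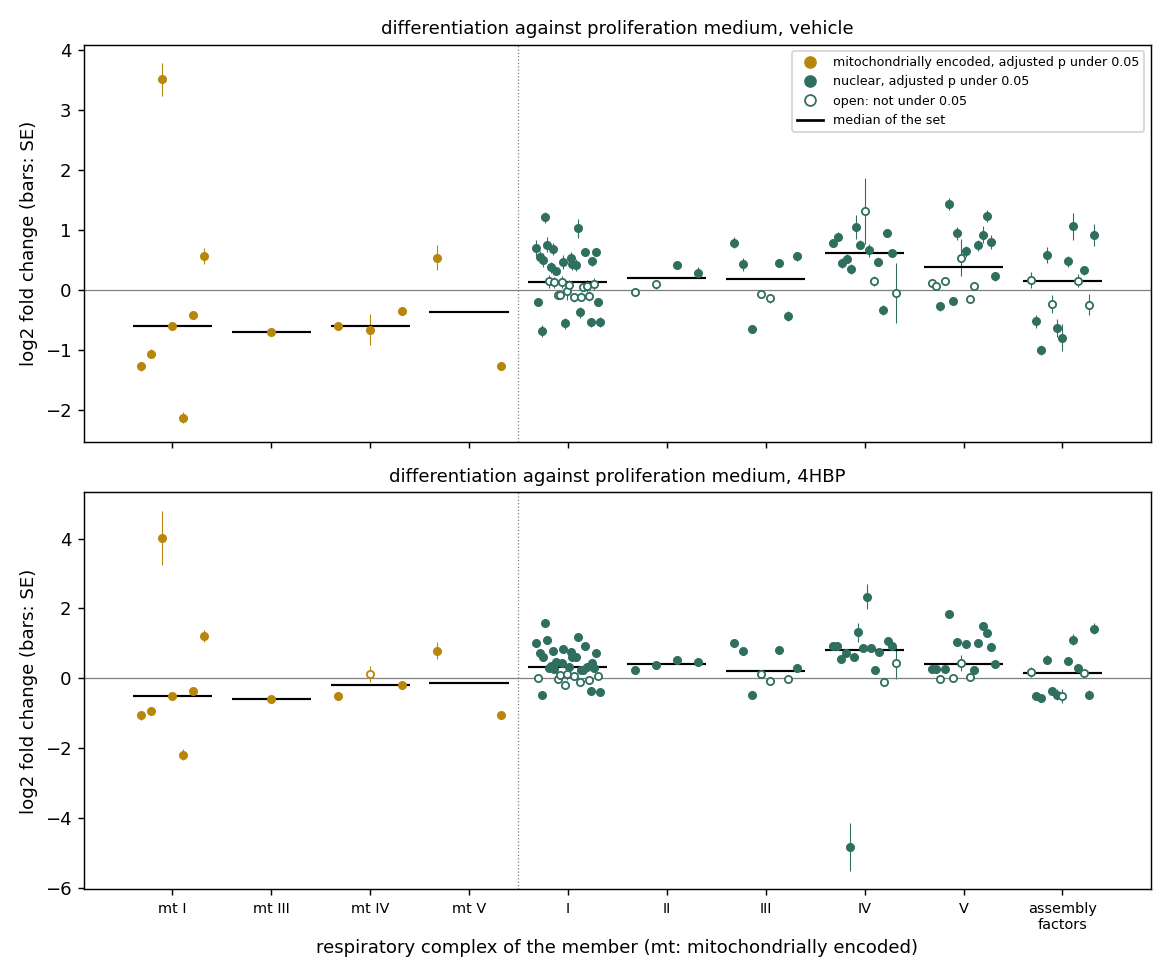
Log2 fold change of each member tested, differentiation against proliferation medium, in vehicle (top) and under 4HBP (bottom), by complex, with mitochondrially encoded members left of the dotted line, SE as bars, filled points for adjusted p under 0.05 and a line at each set's median. The nuclear medians lie between 0.13 and 0.80, and the mitochondrial medians below 0.

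Complex I, the NADH dehydrogenase, takes 7 subunits from mitochondrial DNA. mt-Nd1, a core membrane subunit with no long match elsewhere, was at 10535, 12009 and 12525 CPM in proliferation and 4987 and 5226 CPM in differentiation vehicle libraries, a log2 fold change of -1.27 ± 0.08 (SE, adjusted p = 1.25e-06). Its groups lay far apart, and the 4HBP libraries repeated the gap with 8932 to 12132 against 5169 to 5407 CPM. mt-Nd2, another proton-pumping core subunit, fell by 1.06 ± 0.07 (adjusted p = 1.81e-06), mt-Nd4 by 0.60 ± 0.06 (adjusted p = 1.46e-05) and mt-Nd5 by 0.42 ± 0.07 (adjusted p = 0.000435) on the log2 scale. Summed with its copy, mt-Nd4 fell by 0.66 ± 0.08 (adjusted p = 6.14e-05). Under 4HBP these 3 genes fell by 0.94, 0.52 (0.59 summed) and 0.37, and the groups of each did not overlap under either treatment.

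The 2 short complex I genes with copies have to be read as sums. mt-Nd4l as assigned was at 662, 651 and 795 CPM against 172 and 167 CPM, a log2 fold change of -2.13, but the sum with Gm10222 was at 1194, 1152 and 1183 against 981 and 985 CPM, a fold change of -0.34 ± 0.05 (adjusted p = 0.000485), and under 4HBP the sum gave -0.07 (adjusted p = 0.502). mt-Nd3 as assigned rose from 10.7, 4.86 and 14.4 CPM to 120 and 122 CPM, a log2 fold change of 3.52, whereas its sum with Gm28438 went from 442, 479 and 481 to 573 and 587 CPM, a change of 0.23 ± 0.06 (adjusted p = 0.00957). Most of either as-assigned change was a change in the split between gene and copy.

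mt-Nd6 is the only protein gene read from the light strand, and it shares no long stretch with another gene. It was scarce in these poly(A)-selected libraries, at 50.1, 61.4 and 49.0 CPM in proliferation and 97.2 and 70.4 CPM in differentiation vehicle libraries. It rose by 0.57 ± 0.14 on the log2 scale (adjusted p = 0.0059), and under 4HBP by 1.203 ± 0.175 (adjusted p = 0.000262), against the direction of the other long mitochondrial genes. Without differentiation vehicle replicate 1 the vehicle change was 0.32 (adjusted p = 0.0991). Whether strand was used in counting is not stated in the sources used here, so reads of mt-Nd6 and of RNA from the opposite strand cannot be told apart.

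Of the 36 nuclear subunits of complex I, 16 rose and 7 fell in vehicle, and 24 rose and 3 fell under 4HBP. Over all genes 31.4% rose and 31.5% fell in vehicle, and 33.3% rose and 34.1% fell under 4HBP. The accessory subunit Ndufa2 was at 17.2, 14.4 and 14.5 CPM in proliferation and 38.5 and 36.9 CPM in differentiation vehicle libraries, a log2 fold change of 1.21 ± 0.09 (adjusted p = 4.61e-06). Ndufc1 (1.03 ± 0.16) and Ndufa3 (0.75 ± 0.12), both small membrane-arm subunits, also rose. The catalytic core rose less evenly, with Ndufs3, Ndufs7 and Ndufv1 up by 0.63, 0.48 and 0.64, whereas Ndufs1 was at -0.11 in vehicle and was not called. Subunits that fell were led by Ndufa12 at 150, 115 and 118 against 84.7 and 82.9 CPM (-0.68 ± 0.11, adjusted p = 0.000415), which shares 56.5% of its 40-base words with other genes, followed by Ndufb3 (-0.56 ± 0.10) and the zinc-binding Ndufs6 (-0.54 ± 0.08). Ndufa12 and Ndufs6 fell under 4HBP as well, and Ndufb3 gave -0.18 there (adjusted p = 0.105).

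Complex II, succinate dehydrogenase, also serves the citrate cycle and has no mitochondrially encoded subunit. Its membrane anchors rose in vehicle, Sdhc from 133, 125 and 124 to 178 and 182 CPM (0.42 ± 0.06, adjusted p = 0.000211) and Sdhd from 82.3, 64.2 and 72.3 to 91.8 and 96.6 CPM (0.29 ± 0.09, adjusted p = 0.0226). Sdhd lost its call without either differentiation vehicle library (adjusted p = 0.0671 and 0.158). The flavoprotein Sdha was at 351, 358 and 354 against 366 and 366 CPM, with a TMM-scaled fold change of -0.03 ± 0.06 (adjusted p = 0.624), and the iron-sulfur subunit Sdhb gave 0.10 ± 0.07 (adjusted p = 0.264). Under 4HBP 4 of 4 subunits rose, by 0.25 to 0.52, where 33.3% of all genes rose. The difference between treatments is taken up with the 4HBP comparisons.

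In complex III, the cytochrome bc1 complex, the mitochondrial subunit mt-Cytb was at 15462, 16093 and 16275 CPM in proliferation and 10283 and 10446 CPM in differentiation vehicle libraries, a fall of 0.70 ± 0.05 on the log2 scale (adjusted p = 3.11e-06). Of its 8 nuclear partners 4 rose and 2 fell in vehicle, where 31.4% of all genes rose and 31.5% fell. The Rieske iron-sulfur protein Uqcrfs1 went from 70.2, 68.5 and 68.3 to 101 and 98.0 CPM (0.45 ± 0.06, adjusted p = 0.000161), and the small subunits Uqcr10 (0.79 ± 0.09) and Uqcrq (0.56 ± 0.08) rose too. Uqcrb (-0.65 ± 0.07) and the hinge protein Uqcrh (-0.43 ± 0.08) fell in vehicle, while the core proteins Uqcrc1 and Uqcrc2 gave -0.06 and -0.14 and were not called. Under 4HBP Uqcrh gave -0.02 (adjusted p = 0.858).

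Complex IV, cytochrome c oxidase, had the highest nuclear median, 0.62 in vehicle and 0.80 under 4HBP. In vehicle 11 of 15 tested subunits were up and 1 down, against 31.4% and 31.5% of all genes. Under 4HBP 13 of 16 were up and 1 down, against 33.3% and 34.1% of all genes. The 1 down under 4HBP was Cox6a2 (-4.82), which was not tested in vehicle. It passed the low-count filter only through the proliferation 4HBP cultures, so it could only be called lower. Against the rise of the nuclear subunits, the catalytic core of complex IV from mitochondrial DNA fell. mt-Co1, the highest of all members in CPM, was at 30162, 33634 and 30661 in proliferation and 21523 and 22327 CPM in differentiation vehicle libraries (-0.60 ± 0.06, adjusted p = 2.54e-05), and with its copy it gave -0.58 ± 0.07 (adjusted p = 8.98e-05) in vehicle and -0.49 under 4HBP. mt-Co3 with its copy went from 7285, 7224 and 6879 to 5805 and 5957 CPM (-0.36 ± 0.05, adjusted p = 0.00026), and mt-Co2 with its copy from 9294, 10363 and 9900 to 7635 and 7927 CPM (-0.42 ± 0.07, adjusted p = 0.000632). As assigned, mt-Co2 was at 85.8, 159 and 168 against 77.0 and 107 CPM, and its groups overlapped. That change, -0.66 ± 0.26 (adjusted p = 0.0466), lost its call without proliferation vehicle replicate 2 (adjusted p = 0.117), proliferation vehicle replicate 3 (0.112) or differentiation vehicle replicate 1 (0.273).

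The nuclear subunits of complex IV that rose most in vehicle were Cox6b2, an isoform best known from testis, at 7.6, 6.14 and 4.35 against 12.4 and 13.95 CPM (1.05 ± 0.20, adjusted p = 0.00131), Cox8a at 101, 107 and 93.1 against 207 and 204 CPM (0.95 ± 0.07, adjusted p = 3.06e-06) and Cox5a at 40.8, 36.7 and 36.5 against 75.5 and 73.2 CPM (0.89 ± 0.07, adjusted p = 6.31e-06). Cox4i1, the ubiquitous form of subunit 4, rose from 171, 158 and 158 to 293 and 295 CPM (0.78 ± 0.06, adjusted p = 4.36e-06). Ndufa4, named for complex I but a subunit of complex IV, rose by 0.62 ± 0.07. As assigned, Cox7c was the subunit that fell, at 96.2, 91.6 and 83.4 against 72.1 and 79.6 CPM (-0.33 ± 0.08, adjusted p = 0.00547). Under 4HBP it gave -0.11 (adjusted p = 0.207). Its call in vehicle was lost without differentiation vehicle replicate 1 (adjusted p = 0.0844) and with limma (0.0729).

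Where the nucleus offers alternative isoforms, the cultures used the ubiquitous form. The hypoxia-linked Cox4i2 made up 0.196% or less of the Cox4i1 and Cox4i2 TPM in every library, and Ndufa4l2 1.18% or less of its pair. The muscle-type Cox8b was at 0 in 5 of the 6 proliferation libraries and at 0.248% to 0.565% of the pair with Cox8a in the 5 differentiation libraries, and the germ cell form Cox8c was at 0 in all 11. Cox7a1, the heart and muscle form, was 0.477% to 3.43% of its pair with Cox7a2 in proliferation and 2.55% to 4.43% in differentiation medium, and was at most 1.65 CPM. Cox7a2l, a related protein that joins complexes III and IV, gave 0.16 ± 0.09 in vehicle (adjusted p = 0.141). Cox6b2 reached 3.19% to 8.9% of its pair with Cox6b1, the highest share among the minor forms. Cox6a2, the muscle form of subunit 6a, is described with the 4HBP comparisons.

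In complex V, the F1Fo ATP synthase, 8 of 16 nuclear subunits rose and 2 fell in vehicle, and 12 rose and 0 fell under 4HBP. Over all genes 31.4% rose and 31.5% fell in vehicle, and 33.3% and 34.1% under 4HBP. The small subunits led. Atp5e, the epsilon subunit of the F1 stalk, was at 16.8, 14.8 and 13.3 against 42.3 and 42.9 CPM (1.43 ± 0.10, adjusted p = 2.06e-06), and Atp5l, subunit g, at 62.7, 53.5 and 47.3 against 139 and 132 CPM (1.24 ± 0.10, adjusted p = 5.74e-06). Of the 3 genes for the c-ring, Atp5g1 (0.95 ± 0.11) and Atp5g3 (0.65 ± 0.09) rose, and Atp5g2, which is uncertain for its copy, gave 0.54 ± 0.30. The subunits of the catalytic head, Atp5a1 and Atp5b, gave 0.12 and 0.06 in vehicle and were not called, but rose by 0.28 and 0.28 under 4HBP. Atp5c1 (-0.27 ± 0.07) and Atp5f1 (-0.19 ± 0.07) fell in vehicle, and gave -0.02 and 0.00 under 4HBP. Both lost their call in vehicle without either differentiation vehicle library (Atp5c1 adjusted p = 0.0604 and 0.0776, Atp5f1 0.266 and 0.0891), and Atp5f1 also without proliferation vehicle replicate 1 (0.0689).

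The 2 mitochondrial subunits of complex V share a message. mt-Atp8 was at 2259, 2280 and 2277 CPM in proliferation and 1025 and 959 CPM in differentiation vehicle libraries, a fall of 1.28 ± 0.06 (adjusted p = 1.85e-07). mt-Atp6 as assigned went from 93.5, 167 and 99.1 to 177 and 191 CPM and would be called higher (0.54 ± 0.21, adjusted p = 0.0472), whereas its sum with Gm10925 went from 9778, 11077 and 10822 to 6827 and 7055 CPM and was lower (-0.68 ± 0.08, adjusted p = 3.89e-05). The sign therefore turned with the copy. The call as assigned was lost without proliferation vehicle replicate 1 (adjusted p = 0.161) or 3 (0.109), or without differentiation vehicle replicate 1 (0.0990) or 2 (0.188). With 204 bases mt-Atp8 is about as long as a mean fragment. Its TPM of 147233 in proliferation and 46877 in differentiation vehicle (means, n = 3 and 2) depends on fragment length through RSEM's length correction. TPM is therefore not used here to compare mt-Atp8 alone between media. The TPM ratios of complex V and of all members include mt-Atp8 and so depend on fragment length as well.

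The assembly and coupling factors were called in both directions. In vehicle 5 of 13 rose and 4 fell, against 31.4% higher and 31.5% lower over all genes. Ndufaf8 (1.06 ± 0.23), Sdhaf4 (0.92 ± 0.19) and Ndufaf3 (0.58 ± 0.13) led those that rose. Ndufaf2, an assembly chaperone of complex I and paralog of Ndufa12, went from 27.8, 26.4 and 25.9 to 13.6 and 14.6 CPM (-0.9999 ± 0.0894, adjusted p = 1.1e-05), and Ndufaf6 (-0.80 ± 0.22) and Ndufaf5 (-0.64 ± 0.15) fell too. Ndufaf6 lost its call without differentiation vehicle replicate 1 (adjusted p = 0.0653) or 2 (0.0621), and with limma on log2(CPM+1) (0.0526). Under 4HBP the counts were 5 up and 5 down, against 33.3% higher and 34.1% lower over all genes.

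Per length, the nuclear subunits differed by complex within a library set. In vehicle proliferation cultures the median TPM was 114 for complex I, 151 for complex II, 211 for complex III, 118 for complex IV and 267 for complex V, with Atp5b, the catalytic beta subunit, highest at 735 TPM. In vehicle differentiation cultures the medians were 171, 213, 351, 248 and 386 TPM, and Atp5b stood at 1030 TPM. The TPM values of a library share a fixed total that includes mt-Atp8, so these levels are not compared between the media. From the fits in vehicle, the median log2 fold changes of complexes I to V were 0.13, 0.19, 0.18, 0.62 and 0.38. The order of the complexes by median was V, III, II, IV and I in proliferation, and complex IV stood above complex II in differentiation medium. The complex IV median takes in scarce isoforms, with 15 of 20 subunits at 1 TPM or more in vehicle proliferation and 16 in vehicle differentiation cultures. In the other complexes every nuclear subunit reached 1 TPM. Of the 97 nuclear members, 5 (Cox4i2, Cox6a2, Cox7b2, Cox8b, Cox8c) were too low to be tested in the vehicle comparison of media.

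Fragment length moved with the medium, as given above, and its part in the media comparison was not tested. Across the 92 nuclear members tested, log2 fold change and transcript length had a Spearman rho of -0.38, given as a description across genes that share the same 5 libraries. Within length bands the members of the list and the other coding genes had medians of 0.98 (4 members) and 0.21 (14 genes) under 400 bases, 0.70 (5) and -0.26 (31) at 400 to 500, 0.42 (20) and -0.22 (79) at 500 to 600, 0.47 (24) and -0.05 (312) at 600 to 800, 0.13 (9) and -0.05 (485) at 800 to 1000, 0.16 (17) and -0.04 (1703) at 1000 to 1500, and -0.00740 (4) and -0.05 (1907) at 1500 to 2000 bases. With the effective length of each gene in each library as an offset, chosen after seeing the data, the vehicle comparison called 75 members (49 higher, 26 lower) and the 4HBP comparison 84.

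As sequence background, the promoters of the nuclear members (RefSeq, GRCm38.p6, 250 bases before to 50 after the start, 80 of 97 matched by Ensembl identifier, symbol or synonym) were searched on both strands for the letters of factors known to act on respiratory genes. The NRF1 motif was in 8.75% of member promoters and 1.07% of the promoters of 27025 genes, the YY1 motif in 7.5% and 0.995%, and the ETS motif CCGGAAGT, used by GABPA, in 6.25% and 4.31%. No member held more than 1 of the 3 motifs. Windows of 30 bases with the motif in capitals are shown for the 7 members with NRF1 letters and for a pair with YY1 letters, because each set spans both directions of change in vehicle, from Ndufaf5 (-0.64) over Uqcrc1 (-0.06, not called) to Cox6a1 (0.52), Ndufa11 (0.55) and Atp5k (0.92) for NRF1, and from Ndufs6 (-0.54) to Ndufs7 (0.48) for YY1. A match describes the letters and says nothing of binding.
Atp5g2, chr15:102671070-102671099, minus strand: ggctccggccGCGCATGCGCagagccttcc
Atp5k, chr5:108434430-108434459, minus strand: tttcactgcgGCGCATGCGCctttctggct
Cox6a1, chr5:115349101-115349130, minus strand: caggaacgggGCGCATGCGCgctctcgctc
Ndufa11, chr17:56717692-56717721, plus strand: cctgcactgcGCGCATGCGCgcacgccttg
Ndufaf4, chr4:24897960-24897989, plus strand: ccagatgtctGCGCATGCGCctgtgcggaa
Ndufaf5, chr2:140170652-140170681, plus strand: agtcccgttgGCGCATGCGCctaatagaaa
Uqcrc1, chr9:108936668-108936697, plus strand: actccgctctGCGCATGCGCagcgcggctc
Ndufs6 (YY1), chr13:73328433-73328462, minus strand: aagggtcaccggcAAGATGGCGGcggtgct
Ndufs7 (YY1), chr10:80249463-80249492, plus strand: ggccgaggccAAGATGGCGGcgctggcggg

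Genes that make, keep and serve mitochondria outside the complexes were counted by list, against a background in vehicle of 31.4% of all genes higher and 31.5% lower. Of 22 genes for mtDNA transcription and maintenance 4 rose and 7 fell with differentiation medium, of 21 tested for mitochondrial RNA stability and processing 3 rose and 10 fell, of 24 for import and outer membrane 5 rose and 11 fell, of 41 tested assembly factors outside the naming rule 6 rose and 5 fell, and of 17 citrate cycle enzymes 3 rose and 7 fell, with list medians of -0.13, -0.18, -0.16, -0.04 and -0.06. The mitochondrial RNA polymerase Polrmt (0.12 ± 0.09, adjusted p = 0.27) and the mtDNA packaging factor Tfam (-0.19 ± 0.08, adjusted p = 0.063) were not called in vehicle, nor was Lrpprc, which stabilises mitochondrial messages (-0.18 ± 0.10, adjusted p = 0.13). The nuclease Mgme1 (-1.07 ± 0.11), the RNA-degrading Pnpt1 (-0.55 ± 0.07), the translocase subunit Tomm6 (-0.80 ± 0.07) and the electron carrier cytochrome c, Cycs (-0.61 ± 0.09), fell. Polg2, Fastkd1 and Tomm7 rose by 1.03, 0.59 and 0.79.

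Of the 19 biogenesis regulators 5 rose and 8 fell in vehicle. Ppargc1a, the coactivator PGC-1alpha, was at 47.1, 39.0 and 51.4 CPM in proliferation and 102.8 and 108.6 CPM in differentiation vehicle libraries (1.127 ± 0.104, adjusted p = 1.34e-05), and under 4HBP it rose by 0.53 ± 0.06. The nuclear receptors at low levels parted, Esrrb rising by 1.24 and Esrrg falling by 1.25. In the citrate cycle list Pcx, the anaplerotic pyruvate carboxylase, rose from 42.3, 51.0 and 35.7 to 183 and 185 CPM (2.02 ± 0.12), and Dlst, a subunit of the 2-oxoglutarate dehydrogenase, fell by 0.55 ± 0.06. In the outside assembly factors Cox14 (0.98) rose most and Bcs1l (-1.07), the chaperone of Uqcrfs1, fell most. Under 4HBP the citrate cycle counts were 10 up and 3 down, and the other 5 lists, in the order above with the regulators last, had 2 up and 9 down, 1 and 14, 6 and 12, 11 and 6, and 5 and 12. The background there was 33.3% of all genes higher and 34.1% lower. With 4HBP in proliferation medium 3 of 19 regulators, 2 of 21 RNA genes and 1 of 24 import genes rose, and 2 of 17 citrate cycle genes fell. Among them were Ppargc1a (0.50 ± 0.10) and Pcx (-0.84 ± 0.14), against a background of 3.74% of all genes higher and 3.69% lower. In differentiation medium 2 of 24 import genes rose, among them Cycs (0.20 ± 0.05, adjusted p = 0.0417), against 1.29% of all genes.

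Few members were called with 4HBP against vehicle. In proliferation medium 2 of 105 members tested were called, both higher, against a background of 7.43% of 14449 genes (3.74% higher, 3.69% lower). No mitochondrial member was called by edgeR, while 18 of 105 members had an unadjusted p under 0.05, against 3621 of all 14449 genes. DESeq2 called 4 members, 2 higher and 2 lower, and 807 higher and 826 lower over all genes. Of the members tested 90 of 105 lay below 0 with a median of -0.10, where 49.8% of all genes lay below 0 with a median of 0.00138. These counts describe a lean of the list and were not tested. At 500 to 600 bases nuclear members and other coding genes had medians of -0.13 and -0.07. The medians were -0.10 and -0.06 at 600 to 800, and -0.10 and 0.00622 at 1000 to 1500 bases. They were -0.14 and 0.01 at 1500 to 2000 (4 members), -0.12 and 0.01 at 2000 to 3000 (7), and 0.17 and 0.02 over 3000 bases (2). Other short genes thus leaned the same way by less, and the part of length was not tested. All 11 libraries in 1 fit gave 11 calls of 107 members, 2 higher and 9 lower, with 1367 higher and 1300 lower over all genes. Without replicate 3 of the 4HBP group, the library that stood apart, 3 were called. Without 4HBP replicate 2, vehicle replicate 1 or vehicle replicate 2 the count was 0. The astrocyte markers summed to 4270 to 5104 CPM in vehicle and 3049 to 3680 CPM with 4HBP in this medium, 2 of 5 called lower, and their part in these values was not tested.

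Cox6a2, the muscle isoform of subunit 6a, was at 1.04, 2.67 and 3.02 CPM with 4HBP and 0.191, 0 and 0.287 CPM in vehicle in proliferation medium, so its groups did not overlap, while its vehicle values lay near the limit of 3 counts. The fitted log2 fold change of 3.73 ± 0.67 (adjusted p = 0.0154) depends on the prior count at such levels. Cox6a2 passed the low-count filter only through the 4HBP group, so it could only be called higher. Cox6a2 was 0.694% to 1.9% of its pair with Cox6a1 in TPM in these 4HBP libraries and 0.185% or less in the other 8 libraries. In differentiation medium it stayed between 0 and 0.173 CPM. Its call was lost without 4HBP replicate 2 (adjusted p = 0.0527), vehicle replicate 1 (0.0805) or vehicle replicate 2 (0.0586).

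Uqcrq, a small subunit of complex III, was at 70.8, 80.8 and 83.9 CPM with 4HBP and 65.1, 55.6 and 54.5 CPM in vehicle (0.39 ± 0.09, adjusted p = 0.0297). Its groups did not overlap. The call was lost without any of 4 libraries, with adjusted p between 0.0641 and 0.133. The other 7 nuclear members of complex III stood between -0.29 and -0.01, none called, with Uqcrh at -0.29 ± 0.10 (adjusted p = 0.103) and Uqcrfs1 at -0.23 ± 0.09 (adjusted p = 0.142). In complex II the 4 subunits lay between -0.23 and -0.05, with Sdha at 320, 312 and 297 against 351, 358 and 354 CPM (adjusted p = 0.101), not overlapping but not called.

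In differentiation medium 3 of 106 members tested were called with 4HBP, all higher, against a background of 2.64% of 15483 genes (1.29% higher, 1.34% lower). mt-Nd6 was at 203, 133 and 120 CPM with 4HBP and 97.2 and 70.4 CPM in vehicle (0.87 ± 0.16, adjusted p = 0.00771). Atp5j2, subunit f of the ATP synthase, was at 89.4, 86.5 and 87.1 against 78.1 and 76.9 CPM (0.18 ± 0.04, adjusted p = 0.0263), and Ndufa12 at 95.2, 92.9 and 94.3 against 84.7 and 82.9 CPM (0.17 ± 0.04, adjusted p = 0.0307). The groups of each did not overlap. DESeq2 and limma on log2(CPM+1) called 0 members here, and the adjusted p of mt-Nd6 was 0.31 and 0.42 in them. In edgeR 27 of 106 members had an unadjusted p under 0.05, against 2459 of all 15483 genes. Without vehicle replicate 2 the change of mt-Nd6 was 0.66 (adjusted p = 0.158). Atp5j2 and Ndufa12 lost their call without any single library of the 5, with adjusted p from 0.0581 to 0.179 and from 0.0663 to 0.182.

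None of the other 12 mitochondrial genes was called by edgeR with 4HBP in either medium. In differentiation medium mt-Nd1, mt-Nd2, mt-Nd4, mt-Nd5, mt-Cytb, mt-Co1 and mt-Co3 lay between 0.05 and 0.10, with the 3 4HBP libraries of mt-Co3 at 6104, 6157 and 6238 CPM against 5805 and 5957 CPM. In proliferation medium the same 7 genes lay between -0.15 and 0.02. The 4 others with copies depended on how they were counted. In differentiation medium mt-Co2 gave 0.48 as assigned (adjusted p = 0.0644) and 0.04 summed, mt-Atp6 -0.18 and 0.04, mt-Nd3 -0.01 and -0.05, and mt-Nd4l -0.06 and 0.15 (summed adjusted p = 0.0829). In proliferation medium mt-Nd3 gave -0.52 as assigned and -0.11 summed, mt-Atp6 -0.43 and -0.05, mt-Co2 -0.30 and -0.09, and mt-Nd4l -0.00391 and -0.11. mt-Atp8 was at 0.13 in differentiation and -0.10 in proliferation medium. The ratio of mitochondrial to nuclear sums differed with 4HBP by 0.09 in proliferation and 0.00572 in differentiation medium on the log2 scale, and the groups overlapped in both. Over all members tested in differentiation medium, 94 of 106 lay above 0 with a median of 0.07, where 49.7% of all genes lay above 0 with a median of -0.00109. At 500 to 600 bases nuclear members and other coding genes had medians of 0.07 and 0.07. The medians were 0.08 and 0.05 at 600 to 800, and 0.05 and 0.03 at 1000 to 1500 bases. They were 0.06 and 0.00926 at 1500 to 2000 (4 members), 0.05 and 0.000817 at 2000 to 3000 (7), and -0.03 and -0.02 over 3000 bases (2). Other short genes thus leaned the same way, and the part of length was not tested.

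Whether 4HBP acted differently in the media was tested as the interaction over all 11 libraries. No member of 107 tested was called by edgeR, against a background of 4.48% of 15904 genes (2.01% higher, 2.47% lower). In the same fit 25 of the 107 had an unadjusted p under 0.05, against 3168 of 15904 genes. DESeq2 called 4, all lower, with 454 higher and 631 lower over all genes. Limma voom with quality weights by medium also called 4, all lower, with 464 higher and 567 lower over all genes. Of the members tested 97 of 107 lay below 0 with a median of -0.19, where 50.5% of all genes lay below 0 with a median of -0.00351, and this lean of the list was not tested. At 500 to 600 bases nuclear members and other coding genes had medians of -0.20 and -0.15. The medians were -0.18 and -0.12 at 600 to 800, and -0.14 and -0.02 at 1000 to 1500 bases. They were -0.21 and -0.000249 at 1500 to 2000 (4 members), -0.16 and 0.00853 at 2000 to 3000 (7), and 0.19 and 0.02 over 3000 bases (2). The part of length was not tested. The effect in proliferation minus that in differentiation medium was nearest to the threshold for Ndufs1, the 75 kDa iron-sulfur subunit of complex I, at -0.35 (adjusted p = 0.0548), and for Sdha at -0.28 (adjusted p = 0.0775), members chosen after their values were seen. A difference between the treatments in the medium effect of single members, such as Sdha or Uqcrh, was therefore not called.

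**Figure D5:**
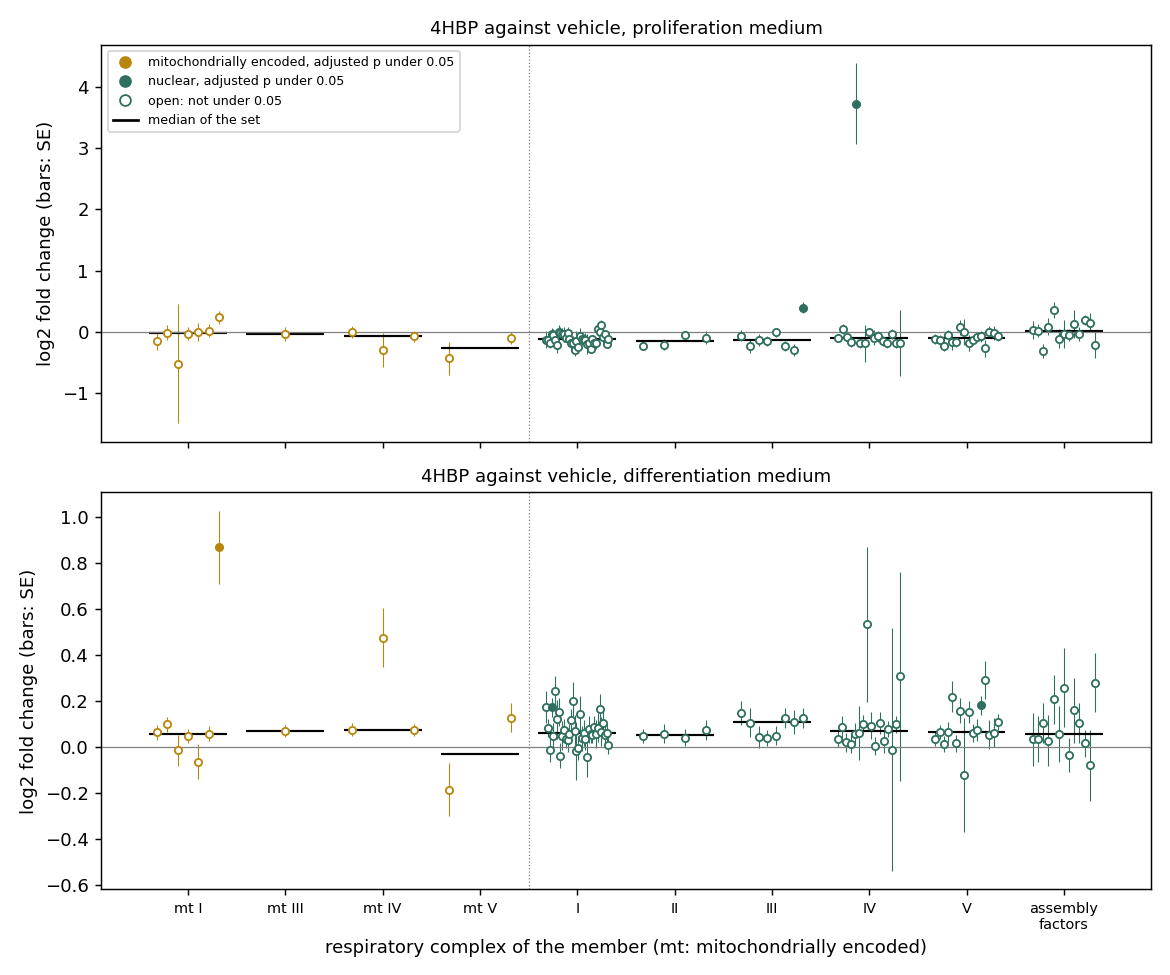
Log2 fold change of each member tested, 4HBP against vehicle, in proliferation (top) and differentiation medium (bottom), laid out as for the media comparison, with SE as bars and filled points for adjusted p under 0.05. The filled points are Cox6a2 and Uqcrq above and mt-Nd6, Atp5j2 and Ndufa12 below, and 90 of 105 members lie below 0 in proliferation and 94 of 106 above 0 in differentiation medium.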

How the data were processed

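Per the paper's methods, poly(A) RNA libraries (TruSeq Stranded mRNA) were read as paired ends, trimmed with cutadapt and quantified by the authors with RSEM 1.3.0 and Bowtie2 2.2.9 on mm10 (GRCm38) with GENCODE vM17 genes. The deposited expected counts are RSEM's unnormalized estimates per gene, which share reads between similar genes. The deposited TPM values, scaled for length and depth, were used for isoforms, levels and an alternative ratio, and the deposited FPKM values were not used. Symbols and positions came from GENCODE vM21 (99.82% of identifiers matched), and 1 annotated Atp5o identifier was absent from the tables. mt-Co3 and Gm28437 were summed. Counts were rounded, filtered with filterByExpr, scaled by TMM and fitted with edgeR 4.0.16 quasi-likelihood tests (R 4.3.3), 2-sided, each comparison on its own libraries and the interaction on all 11, with Benjamini-Hochberg adjustment over all genes and a threshold of 0.05. The fits were tested on simulated data. Shared sequence was counted in words of 40 bases. DESeq2 1.42.0, limma 3.58.1, other scalings, no filter, single libraries left out and summed copies were tried as alternatives. Replicate numbers were checked as pairs.

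The members and lists were chosen with earlier results of these data known. All mitochondrial members are named, as are, for the media in vehicle, the 3 highest and 3 lowest called subunits per complex and factors whose groups did not overlap, the called members under 4HBP, isoforms and complex II, and of outside lists Ppargc1a, Tfam, Polrmt, Lrpprc, Cycs and the extremes. Other genes named were chosen after their values were seen.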

Additional observations from a re-analysis of the deposited data

How the results depend on the processing

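The media comparisons were stable, with 61 to 75 members called in vehicle and 78 to 88 under 4HBP when single libraries were left out, and every other setting within 1.5 times of the reported count. The 4HBP counts were not. In proliferation medium they were 4 with DESeq2, 0 with limma on log2(CPM+1), 1 with effective lengths (chosen after seeing the data, as were the summed copies), 11 with all 11 libraries in 1 fit and 0 to 3 with single libraries left out, against 2 reported. In differentiation medium they were 0 with DESeq2, limma, effective lengths or all 11 libraries, 14 without a filter and 1 to 5 with single libraries left out, against 3. For the interaction they were 4 with DESeq2, 4 with voom weights, 9 without a filter, 1 without summing mt-Co3 and 0 to 3 with single libraries left out, against 0. Counts over all genes moved too, from 541 higher and 533 lower to 1367 and 1300 with all 11 libraries in proliferation medium. Without a filter they moved from 200 and 208 to 384 and 407 in differentiation medium, and from 320 and 393 to 675 and 948 for the interaction. The cause was not tested. The replicate block gave 1 call in proliferation medium, 13 in differentiation medium and 1 for the interaction, and 76 and 83 for the media. In differentiation medium the adjusted p of mt-Nd6 was 6.83e-80 without a filter and 3.37e-44 with the block, so the larger counts of these fits were not used. The labels give no shared source for a number, and correlations of deviations were -0.132 to 0.12. The number of libraries that correlated best with their own number was 0 of 6 in both comparisons with 3 pairs, 0 of 4 for the media in vehicle and 4 of 4 with 4HBP in differentiation medium (2 pairs). With chromosome 1 copies summed, mt-Atp6 turned to -0.68 in vehicle and -0.59 under 4HBP and mt-Co2 to -0.29 under 4HBP. Without its copy mt-Co3 turned to 0.0931 in vehicle and 10.86 under 4HBP, since the gene then holds almost no counts in some libraries. The mitochondrial to nuclear log2 ratio differed between media by -1.54 (vehicle) and -1.66 (4HBP) in TPM and by -1.44 and -1.38 as a median, by -0.95 to -0.82 and -0.98 to -0.90 with single libraries left out, and with 4HBP in proliferation medium by -0.0500 as a median and 0.00205 to 0.13, in differentiation medium by -0.03 to 0.04, and for the interaction by -0.0651 as a median and -0.00367 to 0.13. The TPM ratios include mt-Atp8, whose TPM depends on fragment length. Named members kept their side of the threshold and, if called, their direction under 805 of 848 settings for the media in vehicle. The counts were 208 of 220 under 4HBP, 23 of 34 for 4HBP in proliferation and 25 of 48 in differentiation medium. Members not called were counted here whatever their sign.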
